A study of Mus musculus with 4 samples.

Results

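The 90 protein-coding rows named as cytosolic ribosomal proteins (symbols beginning with Rpl or Rps followed by a digit, a or p, with the 10 Rps6k kinases left out) were followed in hyperplastic mammary glands, from female MMTV-PyMT mice with and without a miR-9 knockout. They were 90 of the 25806 genes listed, 55 of them Rpl rows of the large subunit and 35 Rps rows of the small subunit, spread over 20 chromosomes. Another 162 rows whose symbols fit the same pattern are annotated with a biotype other than protein coding, such as pseudogene, and were not counted as members. A pair of members are not structural proteins of the ribosome despite their symbols, namely Rps19bp1, which encodes a nucleolar partner of Rps19, and Rpl7l1, which encodes a factor of large subunit assembly. The members also include Rpl9-ps6, Rpl10-ps3, Rpl27-ps3, Rpl36a-ps1 and Rps12-ps3, rows with pseudogene symbols that are annotated as protein coding. The 90 rows are thus not 90 separate ribosomal proteins.

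Messenger RNA was sequenced from 2 libraries of knockout glands and 2 libraries of littermate control glands, all carrying MMTV-PyMT, a transgene that expresses the middle T oncoprotein of polyomavirus from a mouse mammary tumour virus promoter active in mammary epithelium. The knockout mice carried a deletion of exon 1 of miR-9, the controls did not, and every mouse was on a mixed background derived from C57BL/6 with glands taken while they were hyperplastic. The miR-9 gene deleted and the zygosity of the knockout mice are not stated in the labels. Nor do the labels tie libraries to individual mice, so the p-values rest on a spread between samples that may be technical only. The comparison asks whether the messages of the ribosome differ between hyperplastic glands of the 2 genotypes.

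Each ribosome holds 1 copy of nearly every ribosomal protein, so the messages for these proteins are kept at similar, high levels in growing cells. Many of them begin with a C followed by a run of pyrimidines, the terminal oligopyrimidine (TOP) start, through which the growth-regulating kinase complex mTORC1 and the protein LARP1 control their translation. Mammalian genomes also carry many processed pseudogenes of these genes, intronless copies whose sequence is often almost identical to the parent message.

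Values are normalised read counts, which summed to 15904798 and 16073229 in knockouts 1 and 2 and to 16378833 and 16418668 in controls 1 and 2. Between 22427 and 23319 genes were above 0 in a library. Across all tested genes, the log2 values of control 2 correlated at r = 0.953 and 0.960 with those of knockouts 1 and 2, where control 1 gave 0.971 and 0.972. The knockouts correlated with each other at r = 0.978 and the controls at 0.973. The glands differed in their marker messages: 15 of 15 mammary epithelial markers were detected and their summed value was 194210 and 249532 in the knockouts, against 265778 and 275309 in the controls. Most of that difference lay in the milk protein gene Csn3, without which the other 14 markers summed to 89540 and 81736 in the knockouts, against 90009 and 89847 in the controls. Limma called 2 of the 15, the estrogen receptor gene Esr1 and the keratin gene Krt19, both higher in the knockouts (log2 fold change 1.33 and 0.98, adjusted p = 0.0208 and 0.0351). Over all tested genes 0.583% were called. Most of the 15 went the other way: 11 had a fold change below 0 and 4 above, with a median of -0.23. Both knockouts were below both controls in 9 and above both in 4, against 25.6% and 25.5% of all tested genes. The sum of 12 of 12 B and plasma cell markers was 22611 and 13102 in the knockouts, against 6055 and 3574 in the controls, and that of 11 of 11 adipocyte markers was 36260 and 13242 in the knockouts, against 16652 and 8950 in the controls. No marker of these 3 lists was at 0 in every library. Other marker lists differed as well. Fold changes were above 0 in 15 of 15 T and NK cell, 9 of 10 macrophage and 7 of 8 fibroblast markers. The same held for 8 of 8 endothelial and 5 of 5 erythroid markers, but for only 1 of 5 skeletal muscle markers tested. Over all tested genes 49.6% had a fold change below 0. The part of cell composition in the results was not tested, and in whole glands fewer cells of a type and less RNA per cell cannot be told apart.

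Start sequences are shown for Rplp2, Rpl35a, Rps12 and Rpl9, on whose values the comparison of genotypes turns, and for Rpl27a, which has a long pyrimidine run. Each is the 30-base window of RefSeq on GRCm38.p6, with 10 bases before the annotated start and 20 after it, read 5′ to 3′ on the transcribed strand, and the capitals mark the longest unbroken run of C and T. They come from chr7:141447641-141447670 (plus strand) for Rplp2, chr16:33056472-33056501 (plus) for Rpl35a, chr10:23787190-23787219 (minus) for Rps12, chr7:109519185-109519214 (plus) for Rpl27a and chr5:65391412-65391441 (minus) for Rpl9.
Rplp2: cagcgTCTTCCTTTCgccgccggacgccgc
Rpl35a: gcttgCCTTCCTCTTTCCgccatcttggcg
Rps12: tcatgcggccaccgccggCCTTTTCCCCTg
Rpl27a: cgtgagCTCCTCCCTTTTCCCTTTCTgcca
Rpl9: gggCCCTgacggattacaagaacgtgatga
Of the 65 members with a start site in that table, 14 (21.5%) had an annotated start of C followed by at least 4 pyrimidines, against 813 (3.01%) of 27025 genes. A run of at least 8 pyrimidines lay somewhere in the window of 24 members (36.9%), against 3517 genes (13.0%), and the longest run had a median of 7 bases in members, against 5 in all genes. The 24 members with such a run had a median log2 fold change of -0.08 and the 41 without one had -0.12.

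As a group the ribosomal protein messages held nearly the same share of the library in all 4 samples. The members took 8.53% and 8.82% of the summed value in knockouts 1 and 2, against 9.28% and 8.53% in controls 1 and 2. Control 1 held the highest share, and the lowest share of the knockouts was also that of control 2. The means were 8.67% ± 0.208 in knockouts and 8.90% ± 0.536 in controls (SD, n = 2 each), a difference of -0.231 percentage points that was smaller than the spread between the controls (exact two-sided permutation p = 1, where 0.33 is the smallest that 2 libraries against 2 can give). Large subunit rows took 4.89% and 5.05% in the knockouts, against 5.17% and 4.77% in the controls. Small subunit rows took 3.64% and 3.77% in the knockouts, against 4.12% and 3.76% in the controls.

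**Figure D1:**
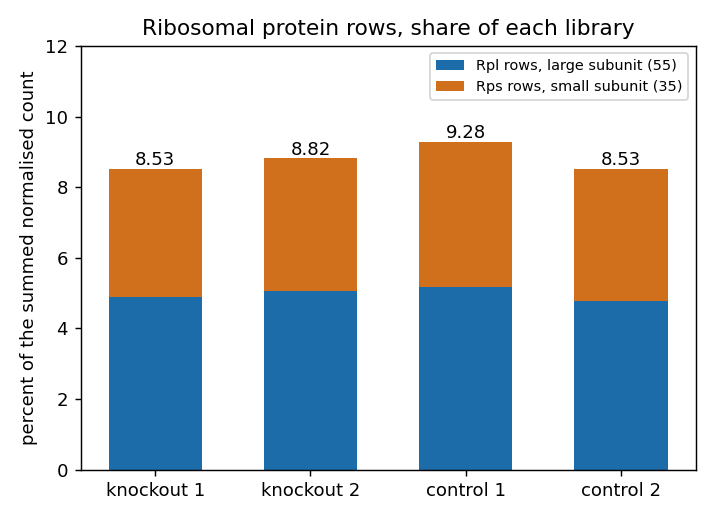
Share of the summed normalised count taken by the 90 ribosomal protein rows in each library, in percent, with the Rpl and Rps rows stacked and the total printed above each bar. The totals run from 8.53% to 9.28%, and the 2 knockout bars lie within the range of the 2 control bars.

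Per kilobase of annotated exon the values spanned a wide range, with a median normalised count of 8108 per kilobase and quartiles of 4589 and 13108. Of the 90 rows, 50 lay between 5000 and 15000 per kilobase and 12 lay under 1000. Rplp1, an acidic protein of the stalk that recruits elongation factors, was highest at 77203 per kilobase, followed by Rps3a1 at 35741 and Rpl36 at 31877. The exon length used equalled the annotated transcript length for these genes, whereas for Rpl9 and Rpl35a it was several times longer. The ranks thus depend on the annotation. Before division by length, Rplp0 had a higher mean than Rplp1, at 39293 against 38524 over all libraries. How far the range reflects message levels was not tested. The normalised count of Rplp1 was 35129 and 38398 in the knockouts, against 40975 and 39596 in the controls (log2 fold change -0.13, SE 0.10, limma adjusted p = 0.516). Rps3a1 had 30679 and 35871 in the knockouts, against 36767 and 36357 in the controls (-0.14, SE 0.11, limma adjusted p = 0.534). In both genes the knockouts lay below the controls by less than the fit could separate, and in Rpl36, with 12490 and 11138 in the knockouts against 14134 and 11074 in the controls, the groups overlapped.

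No ribosomal protein message passed the test between genotypes. With limma on log2(value + 1) and Benjamini-Hochberg adjustment over 22455 genes, 0 of 90 members had an adjusted p under 0.05, where 131 genes (0.583%) did, 93 of them higher in the knockouts (0.414%) and 38 lower (0.169%). At an unadjusted p under 0.05 there were 14 members (15.6%), 4 higher and 10 lower, against 18.0% of all genes. Of the 80 members with a mean of at least 1000, 15.0% were under it, against 27.4% of 3991 other genes over that mean. The median log2 fold change of the members was -0.09, with quartiles of -0.18 and -0.00 and a median SE of 0.11, and 61 of 90 lay within 0.2 of 0. Both knockouts were above both controls in 5 members (5.56%, against 25.5% of all genes) and below both in 29 (32.2%, against 25.6%), and the libraries of the 2 groups overlapped in 56. Without control 1, limma called 5 members, namely Rpl9, Rpl9-ps6 and Rpl35a higher and Rplp2 and Rps19bp1 lower, among 2361 of 21034 genes (11.2%) called under that setting, in which the lone control is assumed to vary like the knockouts. Without knockout 1 or knockout 2 it called 0 genes, where 1384 and 1805 genes had an unadjusted p under 0.05.

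Fold changes below 0 were found in 68 members (75.6%), against 49.6% of all tested genes. Well-measured genes as a whole leaned the same way: of 3991 other genes with a mean of at least 1000, 2611 (65.4%) had a fold change below 0, with a median of -0.09 and quartiles of -0.23 and 0.07. The 80 members over the same mean had a median of -0.09 too, and 26 of them (32.5%) had both knockouts below both controls, against 1738 (43.5%) of those other genes. Rpl rows had a median of -0.08, with 40 of 55 below 0, and Rps rows had a median of -0.13, with 28 of 35 below 0. Both knockouts were above both controls in 5 Rpl rows (Rpl9, Rpl9-ps6, Rpl17, Rpl19 and Rpl35a) and in 0 Rps rows, and they were below both in 15 Rpl rows and 14 Rps rows. Whether the subunits differed was not tested.

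**Figure D2:**
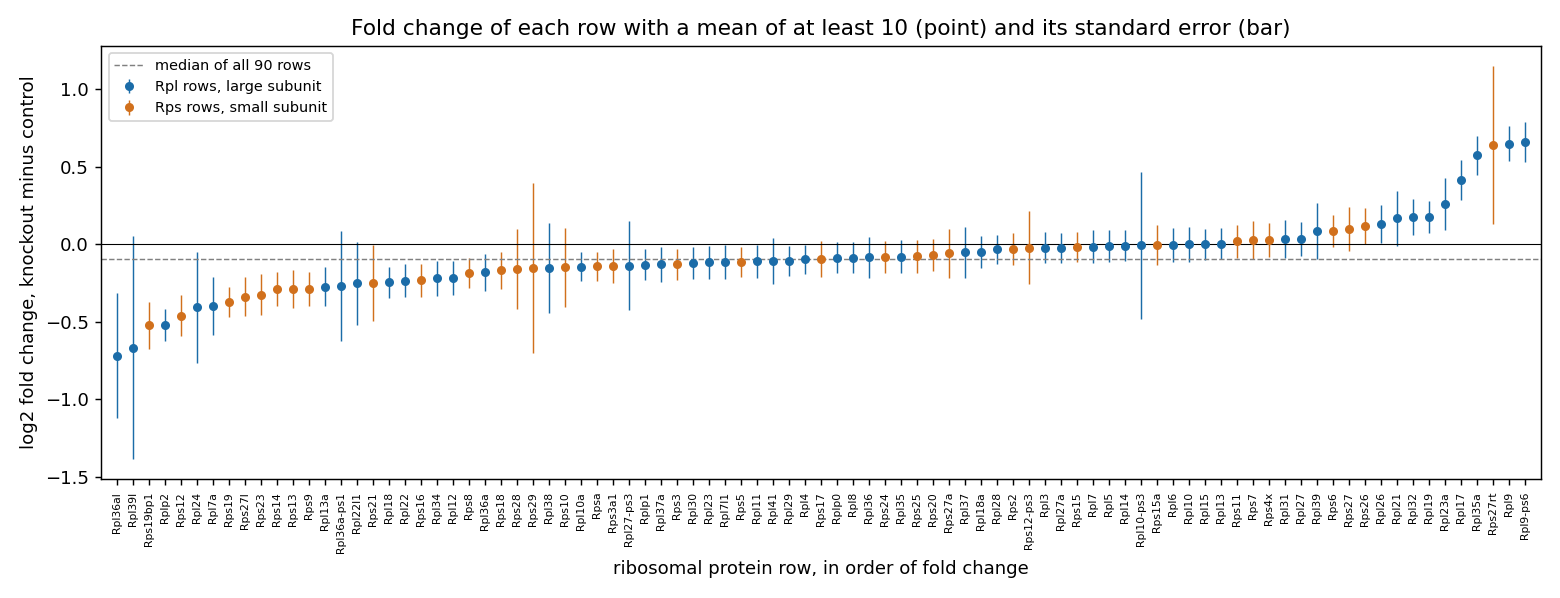
Log2 fold change, knockout minus control, of the 89 ribosomal protein rows with a mean of at least 10, in order of fold change, with bars of 1 standard error of the limma fit. Most points lie between -0.2 and 0.2, Rpl9-ps6, Rpl9, Rps27rt, Rpl35a and Rpl17 stand at the upper end, and the dashed line marks the median of -0.09.

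Rpl9 and its copies had higher values in both knockouts than in both controls. Rpl9 (ENSMUSG00000047215, GRCm38 chromosome 5, 65388364 to 65391444), a protein of the large subunit, had 24876 and 23464 in the knockouts, against 16666 and 14246 in the controls. Both knockouts lay above both controls, with means of 24170 ± 999 and 15456 ± 1711 in knockouts and controls (SD, n = 2 each). The log2 fold change was 0.65 (SE 0.11, 95% interval 0.39 to 0.91), which missed the threshold at a limma adjusted p of 0.0553, the smallest of any member. Rpl9-ps6 (chromosome 19, 32465885 to 32466575), a row annotated as protein coding whose coding sequence is 99.8% identical to that of Rpl9, had 869 and 966 in the knockouts, against 547 and 615 in the controls (0.66, SE 0.13, limma adjusted p = 0.0696). It separated the groups as Rpl9 did, at about the same fold change.

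The limma adjusted p of Rpl9 ran from 0.0176 to 0.732 over the alternative settings, with the highest value where knockout 1 was left out.

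The Rpl35a row had higher values in the knockouts, while its processed copies together had lower ones. Rpl35a (ENSMUSG00000060636, chromosome 16, 33056453 to 33060189), a large subunit protein mutated in some humans with Diamond-Blackfan anaemia, a failure of red cell production, had 7435 and 7665 in the knockouts, against 5700 and 4515 in the controls (log2 fold change 0.57, SE 0.13, limma adjusted p = 0.0834). Its 11 listed near-identical copies summed to 285 and 268 in the knockouts, against 1656 and 1616 in the controls. The copies took 3.69% and 3.38% of the family total in the knockouts, against 22.5% and 26.4% in the controls. The copy share thus separated the groups without overlap in the direction opposite to the Rpl35a row.

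In both controls most of that copy signal came from Gm10243 (chromosome 6, 48523518 to 48523850), a pseudogene row 99.7% identical to the Rpl35a coding sequence. It had 92.5 and 154 in the knockouts, against 1266 and 1083 in the controls, and fell by 3.28 on the log2 scale (SE 0.25, limma adjusted p = 0.00538). Rpl35a-ps2 (chromosome 1, 181241988 to 181242320), also 99.7% identical, had 129 and 75.8 in the knockouts, against 279 and 422 in the controls (-1.78, SE 0.32, limma adjusted p = 0.0580). Both rows were chosen after their values were seen. With reads of Rpl35a and its copies summed, an alternative chosen after seeing the data, the family had 7719 and 7933 in the knockouts, against 7356 and 6131 in the controls. The family fold change of 0.22 (SE 0.11, 95% interval -0.04 to 0.48, limma adjusted p = 0.339) was less than that of the Rpl35a row alone.

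**Figure D3:**
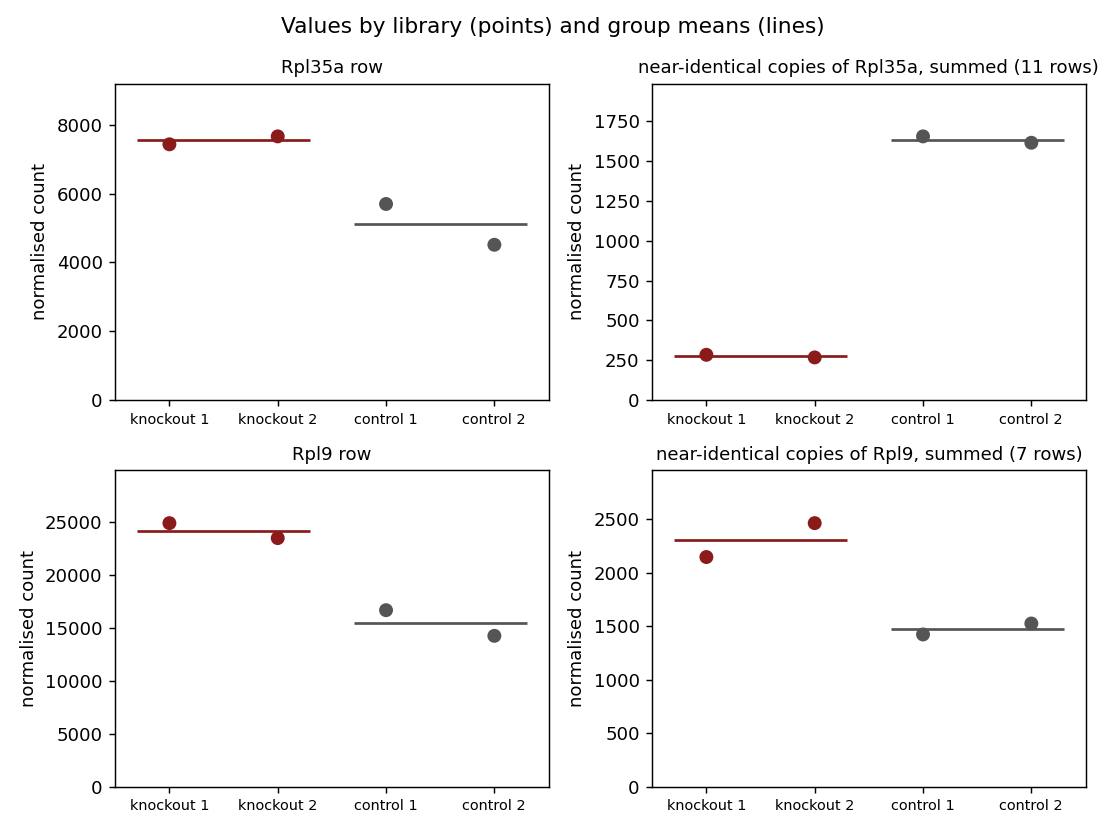
Normalised count in each library (points) and group means (lines) of the Rpl35a row, of its 11 near-identical copies summed, of the Rpl9 row and of its 7 near-identical copies summed, each on a linear axis from 0. The copies of Rpl35a sum to 285 and 268 in the knockouts and 1656 and 1616 in the controls, opposite to the Rpl35a row, whereas the copies of Rpl9 sum to 2149 and 2466 in the knockouts and 1425 and 1527 in the controls, the same way as the Rpl9 row.

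The counting of reads shared between a parent gene and its copies is not given in the sources used here, so the split within such families is uncertain. Of 89 members with an annotated coding sequence, 78 had at least 1 listed row of at least 95% identity over at least 80% of it. Together these copies made 382 rows that are not members, of which 331 were tested, 0 were called higher and 1, Gm10243, was called lower. The median log2 fold change of the tested copies was -0.21. Refitted with each family summed, limma called 1 of 84 families, against 155 of 22129 rows (0.700%), and the family median was -0.09. The family called was that of Rpl9, with 27025 and 25930 in the knockouts, against 18091 and 15774 in the controls (log2 fold change 0.65, SE 0.11, limma adjusted p = 0.0474). Its copies took 7.95% and 9.51% of the total in the knockouts, against 7.88% and 9.68% in the controls, so that this share overlapped between the groups.

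For Rpl17, a large subunit protein, most of the family signal in the controls was in copies, and the fold change of the row exceeded that of the family. The Rpl17 row had 12648 and 9976 in the knockouts, against 8827 and 8043 in the controls (log2 fold change 0.41, SE 0.13, limma adjusted p = 0.167). Its copies held 43.5% and 54.9% of the family in the knockouts, against 56.9% and 61.4% in the controls. The family had 22394 and 22120 in the knockouts, against 20461 and 20860 in the controls, with a fold change of 0.11 (limma adjusted p = 0.570). Rps27rt, an intronless row with the same coding sequence as Rps27, had 2334 and 4905 in the knockouts, against 1660 and 2833 in the controls (0.64, SE 0.51, limma adjusted p = 0.583). Its groups overlapped, its fold change was 0.11 without knockout 2 and 1.18 without knockout 1, and the family of Rps27 had a fold change of 0.19 (limma adjusted p = 0.446).

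Rplp2, which pairs with Rplp1 in the stalk, was the structural member with the smallest p among those lower in the knockouts. Rplp2 (ENSMUSG00000025508, chromosome 7, 141447370 to 141451585) had 8858 and 7986 in the knockouts, against 12009 and 12129 in the controls. The groups were separated, with a log2 fold change of -0.52 (SE 0.10, 95% interval -0.75 to -0.29, limma adjusted p = 0.0667). The protein-coding gene Wdr89 carries a copy of the Rplp2 coding sequence at 99.4% identity and had 1121 and 849 in the knockouts, against 1475 and 1297 in the controls (-0.50, limma adjusted p = 0.148); it was chosen after its values were seen. Rplp0, the scaffold of the same stalk and likewise chosen afterwards, had 39400 and 36816 in the knockouts, against 41645 and 39312 in the controls (-0.09, SE 0.10, limma adjusted p = 0.683). The values of Rplp0 overlapped between the groups, those of Rplp2 did not, and whether the stalk members differed from each other was not tested.

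Among small subunit rows, Rps12 (chromosome 10, 23785183 to 23787275) had the lowest fold change of a structural member. It had 9030 and 10713 in the knockouts, against 14872 and 12338 in the controls (log2 fold change -0.46, SE 0.13, limma adjusted p = 0.133). With its copies the family had 14476 and 17200 in the knockouts, against 19764 and 20052 in the controls (-0.34, limma adjusted p = 0.177), and both knockouts remained below both controls. Rps19, the gene most often mutated in human Diamond-Blackfan anaemia and chosen after its values were seen, had 16564 and 16690 in the knockouts, against 21814 and 21270 in the controls. The libraries of each group lay close together and apart from the other group, with a fold change of -0.37 (SE 0.09, limma adjusted p = 0.108). Its partner Rps19bp1 had 412 and 391 in the knockouts, against 525 and 636 in the controls (-0.52, SE 0.15, limma adjusted p = 0.140). The other rows that were lower at an unadjusted p under 0.05 were Rpl18, Rps9, Rps13, Rps14, Rps23 and Rps27l, of which none passed the adjusted threshold.

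Of the paralogues, second genes for a ribosomal protein that are often used in particular tissues, 6 of 10 listed by symbol were measured and none passed the adjusted threshold. Rpl3l, the form of Rpl3 found in heart and skeletal muscle, was lowest at 3.89 per kilobase, with values of 3.98 and 12.6 in the knockouts, against 0 and 8.97 in the controls (log2 fold change 1.38, SE 1.15, limma adjusted p = 0.556). Rpl39l, a form of Rpl39 known from male germ cells, was at 13.4 per kilobase, with 8.95 and 5.83 in the knockouts, against 23.6 and 5.98 in the controls (-0.67, SE 0.72, limma adjusted p = 0.662). These few reads overlapped between the groups in both genes. Rpl36al, an intronless form of Rpl36a, was at 20.9 per kilobase with 20.9 and 21.4 in the knockouts, against 36.0 and 34.9 in the controls (-0.72, SE 0.40, limma adjusted p = 0.377).

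Rps27l, a form of Rps27 induced by the tumour suppressor p53, was the best expressed of the paralogues, with 4655 and 5724 in the knockouts, against 6874 and 6192 in the controls (-0.34, SE 0.13, limma adjusted p = 0.223). Both knockouts lay below both controls. Rpl22l1 had 1352 and 2240 in the knockouts, against 1826 and 2355 in the controls (-0.25, SE 0.27, limma adjusted p = 0.671). The assembly factor Rpl7l1 had 2012 and 2308 in the knockouts, against 2253 and 2420 in the controls (-0.12, SE 0.11, limma adjusted p = 0.614). Its groups overlapped, as did those of Rpl22l1. The row Rps4l, annotated as a pseudogene and so not a member, had 119 and 62.2 in the knockouts, against 61.6 and 47.8 in the controls.

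Ribosomal proteins whose symbols the name pattern misses were also examined, and neither Fau nor Rack1 passed the limma threshold. Fau, whose product is cleaved into a ubiquitin-like part and a small subunit protein, had 14616 and 14269 in the knockouts, against 15552 and 15021 in the controls (log2 fold change -0.08). Rack1, a scaffold on the small subunit, had 27441 and 27379 in the knockouts, against 26917 and 25266 in the controls (0.07). The groups did not overlap in either gene. Of all tested genes, 25.5% had both knockouts above both controls and 25.6% had both below. Of other genes with a mean of at least 1000, 19.0% had both above and 43.5% had both below. The member Rps27a, made as a fusion with ubiquitin, had 19766 and 16836 in the knockouts, against 22120 and 16332 in the controls (-0.06, SE 0.16, limma adjusted p = 0.883).

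Some low rows belong to genes with near-identical copies or with exons under other annotated genes. Whether reads were divided between them was not tested. Rpl24 with its copies still had only 328 and 397 in the knockouts, against 468 and 436 in the controls. Rps10 had 143 and 170 in the knockouts, against 147 and 204 in the controls, while its copies summed to 6102 and 6560 in the knockouts, against 5785 and 6204 in the controls. The copies thus held 97.7% and 97.5% of the family in the knockouts, against 97.5% and 96.8% in the controls, most of it in Rps10-ps2 with 5305 and 6105 in the knockouts, against 4572 and 5668 in the controls. Rpl24, at 86.4 per kilobase, had 47.0% of its exon bases under another annotated gene on the same strand, and the same held for 29.4% of Rpl13a, 24.5% of Rpl36al and 20.6% of Rps10. Antisense genes covered 66.2% of the exon bases of Rpl35 and 59.7% of those of Rpl23a, and since the strand setting of the counting is not given, reads of these genes and their antisense partners cannot be told apart. Of the members lower or higher at an unadjusted p under 0.05, Rpl18 had antisense overlap, over 9.23% of its exon bases. These rows were chosen after their values were seen.

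Some messages with short coding sequences differed between libraries of the same genotype, most of all between the controls. Rps29, a zinc-binding protein of the small subunit, had 12518 and 7375 in knockouts 1 and 2, against 16174 and 7062 in controls 1 and 2. Rpl38, a large subunit protein, had 11284 and 9006 in the knockouts, against 14726 and 8539 in the controls. Rps21 had 10573 and 8600 in the knockouts, against 14434 and 8915 in the controls. In all 3, and in Rps28 with 7460 and 5676 in the knockouts against 9189 and 5752 in the controls, the libraries numbered 1 were higher than those numbered 2 in both genotypes, and the genotypes overlapped. These 4 genes were chosen after their values were seen.

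Among the 10 members with under 300 coding bases and a mean of at least 1000, the median log2 difference between libraries 1 and 2 was 0.09 in the knockouts and 0.53 in the controls, and it was above 0 in 6 of 10 in the knockouts, 9 of 10 in the controls and 6 of 10 in both. For the 32 members of 500 bases and over it was -0.09 in the knockouts and 0.01 in the controls. The 87 other coding genes under 300 bases had -0.10 in the knockouts and 0.01 in the controls. In the controls Rps27rt alone went against the other short members, with -0.77. In the knockouts, where some other short members were also below 0, it had the lowest difference at -1.07. Across these 80 members the difference within the knockouts and the difference within the controls correlated at r = 0.69 (Spearman 0.46), against r = 0.23 (Spearman 0.15) across 3915 other coding genes of the same mean. The points share their 4 libraries and are not independent, and the labels do not say whether library numbers mark a shared day, litter or preparation. Coding length correlated with the difference between the knockouts at a Spearman rho of -0.04, with that between the controls at -0.46 and with the fold change between genotypes at 0.08.

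**Figure D4:**
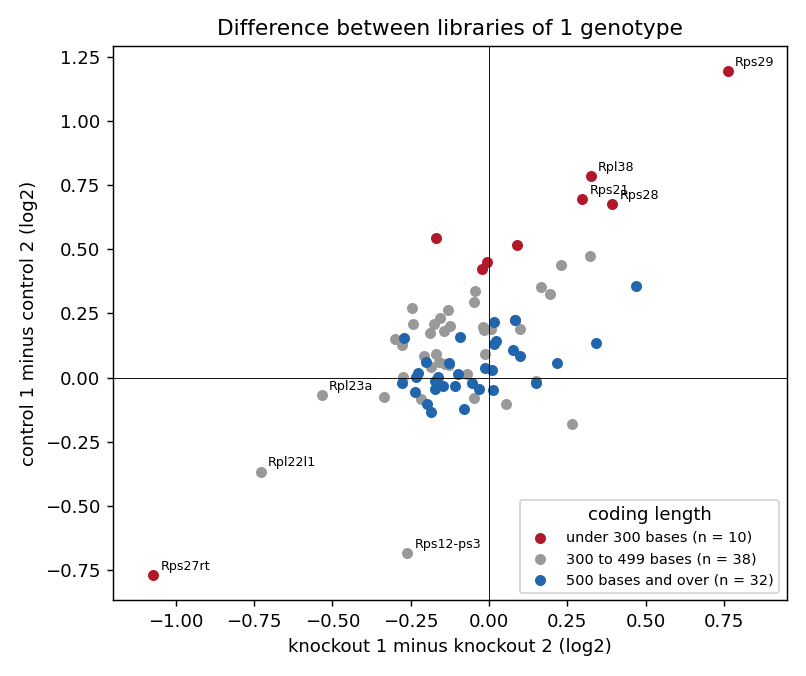
Log2 difference between knockouts 1 and 2 (horizontal) and between controls 1 and 2 (vertical) for the 80 ribosomal protein rows with a mean of at least 1000, coloured by coding length. Rps29, Rpl38, Rps21 and Rps28 lie at the upper right and Rps27rt at the lower left, while rows of 500 coding bases and over gather near 0.

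Genes around the ribosome were given by list. Of 22 non-ribosomal TOP and elongation messages, limma called 0, with 1 higher and 4 lower at an unadjusted p under 0.05 and a median log2 fold change of -0.09. Over all tested genes 18.0% had an unadjusted p under 0.05, and 27.4% of other genes with a mean of at least 1000 did. Snhg8, a snoRNA host with a TOP start, had 605 and 429 in the knockouts, against 1079 and 1473 in the controls (-1.30, limma adjusted p = 0.0553). Eef1a1, the factor that brings aminoacyl-tRNA to the ribosome, had 131182 and 145011 in the knockouts, against 114795 and 118370 in the controls (0.24, limma adjusted p = 0.271). Nap1l1, a histone chaperone, had a fold change of -0.29 (limma adjusted p = 0.226). The knockouts were apart from the controls in both Snhg8 and Eef1a1, below them in Snhg8 and above them in Eef1a1. Of all tested genes, 25.6% had both knockouts below both controls and 25.5% had both above.

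Of 42 ribosome biogenesis genes, 0 were called, 7 were lower and 0 higher at an unadjusted p under 0.05, and 30 had both knockouts below both controls, with a median of -0.20. Over all genes 25.6% had both knockouts below both controls and 18.0% had an unadjusted p under 0.05. Of other genes with a mean of at least 1000, 43.5% had both knockouts below both controls, with a median of -0.09. Part of the biogenesis list, such as Gar1 and Lyar, lay under 1000 in every library, so that comparison is with better-measured genes. Nop56, a core protein of box C/D snoRNPs, had 1406 and 1517 in the knockouts, against 1897 and 2541 in the controls (-0.59, limma adjusted p = 0.106). The nucleolar genes Nop16 and Gnl3 followed with -0.55 and -0.43 (limma adjusted p = 0.117 and 0.124). Of 28 translation initiation factors, 0 were called, 9 were lower and 0 higher at an unadjusted p under 0.05, and 21 had both knockouts below both controls, with a median of -0.20, to be read against the same shares of all and of well-measured genes. Eif1, Eif5a and Eif2b4 had the smallest p, at -0.41, -0.35 and -0.48 (limma adjusted p = 0.145, 0.155 and 0.167).

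Of 21 regulators of these messages, 0 were called, with 1 higher and 3 lower at an unadjusted p under 0.05 and a median of -0.10. An unadjusted p under 0.05 was found in 18.0% of all tested genes and in 27.4% of other genes with a mean of at least 1000. Mycl, a member of the Myc family, had 155 and 163 in the knockouts, against 67.8 and 28.9 in the controls (1.82, limma adjusted p = 0.0881). Eif4ebp1, a translation inhibitor and target of mTORC1, had 911 and 828 in the knockouts, against 1138 and 1260 in the controls (-0.46, limma adjusted p = 0.109). Neither gene overlapped between the groups, where 25.5% of all tested genes had both knockouts above both controls and 25.6% had both below. Tial1, an RNA-binding protein that acts on TOP messages, had a fold change of -0.32 (limma adjusted p = 0.186).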

How the data were processed

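RNA sequencing libraries of 2 knockout and 2 control mammary glands were analysed, grouped by the genotype in the labels. RNA was extracted with TriZol Up and libraries were made with a TruSeq RNA kit and read on a NovaSeq, per the labels' protocols. Bowtie 0.12.2 and the builds hg38, GRCm38 and mm10 are named with no role in the submitters' processing notes. The counting tool and its strand setting are not given in the sources used here.

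The deposited values are a normalised signal, read counts per gene divided by a factor per library: 100% of the values of each library were whole multiples of a step within a tolerance of 1e-06 of it. The steps were 0.995 and 0.971 in knockouts 1 and 2 and 1.027 and 0.996 in controls 1 and 2. A rule on steps near 1 excluded knockout 1 and control 2 from recovery of counts, so no count-based test was run. Such scaling makes fold changes relative to the typical gene. The sums in steps, a measure of depth, were 15986996 and 16549344 in the knockouts and 15941909 and 16478545 in the controls.

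After a filter that kept genes with a value of at least 1 in at least 2 libraries, log2(value + 1) was fitted by genotype in R 4.3.3 with the trend and robust options of limma 3.58.1, which left 2 residual degrees of freedom per gene. P-values were adjusted by Benjamini-Hochberg over all 22455 genes tested, at a threshold of 0.05. A fold change is the knockout mean less the control mean of log2(value + 1), a scale that understates changes of low genes. The procedure was run on simulated counts with the same dispersion for every gene and with changes larger than those of most members. That run does not show how the test performs on smaller changes or on genes of unlike spread. Shares of the summed value were compared by exact two-sided permutation, whose smallest p is 0.33 at this size.

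Near-identical copies were sought with BLAST+ 2.17.0 as annotated transcripts with at least 95% identity over at least 80% of a member's longest coding sequence, in GENCODE M21 on GRCm38, which also gave coding lengths and exon overlaps. Values per kilobase use the exon length in the deposited tables, which for some members was much longer than the annotated transcript. Start windows are those of RefSeq on GRCm38.p6, which held 65 of 90 members; where a gene had several starts, the one with the longest pyrimidine run was used for members and other genes alike.

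Named members were the 5 largest rises and falls among those with a mean of at least 10, the 3 highest and lowest per kilobase, the paralogues and the members that are not structural, and of each list the 3 genes with the smallest unadjusted p; genes outside this rule are marked in the text. The members and lists were chosen with earlier results of these data known. The alternatives changed the pseudocount, filter, scaling, variance model, replicate block and libraries, and 1 more, summing copies, was chosen after seeing the data.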

Additional observations from a re-analysis of the deposited data

How the results depend on the processing

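The number of members called by limma and the number of all genes called depended on the settings, and the cause was not tested. Genes called numbered 33 at a pseudocount of 0.1, 258 at a pseudocount of 5, 332 with no filter, 69 with a filter on the mean of at least 10, 257 after quantile normalisation, 0 with neither trend nor robust (2983 at an unadjusted p under 0.05) and 0 to 2361 with 1 library left out. Members higher in the knockouts numbered 1 (Rpl9) at a pseudocount of 5, with no filter, at the same sum in every library, at the same sum of all genes that are not members and with copies summed, 2 (Rpl9 and Rpl9-ps6) after quantile normalisation and 0 to 3 with 1 library left out. Members lower numbered 1 (Rplp2) with no filter and 0 to 2 with 1 library left out. Quantile normalisation brought the median log2 fold change to -0.0351 for Rpl rows and -0.0711 for Rps rows. With 1 library left out it ran from -0.0961 to -0.0171 for Rpl rows, from -0.1581 to -0.0558 for Rps rows and from -0.1186 to -0.0299 for all members, and the difference in the members' share of the sum ran from -0.6104 to 0.1476 percentage points. The fold changes that changed sign did so with 1 library left out and ran from -1.5791 to 0.2404 for Rpl39l, -0.2610 to 0.0910 for Rpl36, -0.2751 to 3.0421 for Rpl3l, -0.2781 to 0.1595 for Rps27a and -0.6167 to 0.1110 for Rpl22l1. With the replicate number as a block, limma called 367 genes and 1 member (Rpl9, adjusted p = 0.0429); deviations of libraries with the same number correlated at r = 0.118 over all genes, which with 2 pairs does not establish a pairing. For the named members, 247 values over the alternatives kept their direction and their side of the threshold, and 14 newly passed it.

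With 2 libraries per group and 2 residual degrees of freedom, a difference of the size of the members' median SE of 0.11 could not be resolved. Reads shared with copies could not be assigned, and counting error was not computed from scaled values.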
